A study of Mus musculus with 8 samples.

Results

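The skin compared here came from the forepaw palms of mice that received vehicle alone, so it describes how skin without the PACAP receptor PAC1R differed from wild-type (WT) skin when no PACAP was given. The study injected PACAP or its vehicle into the footpad of WT and PAC1R knockout (KO) mice and co-hybridised both RNAs of a genotype and time on 2-colour microarrays. Only the vehicle channel of the 8 arrays was used, that is 4 of the 8 RNA samples: WT at 30 min, WT at 60 min, KO at 30 min and KO at 60 min. Each vehicle sample was read on 2 arrays with the dyes swapped, in Cy3 on the array numbered 1 and in Cy5 on the array numbered 2, and the 2 readings were averaged. The rule for choosing these samples used the dye labels and no measured value.

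WT mice were C57BL/6J by their labels, and the KO mice were Adcyap1r1-/- mice that carry the same strain label. All were males aged 9 to 10 weeks, were anaesthetised, and received 5 µL of saline with 0.1% bovine serum albumin into the centre of the footpad, 30 or 60 min before the skin was taken. The vehicle is itself a needle injury with a protein solution, and no uninjected skin was analysed here. The methods name 6 WT and 6 KO mice, but how they were divided over the RNA samples is not given in the sources used here. The p-values below therefore do not measure the spread between mice, and no genotype and time had replicate RNA samples. With time as a term, those of the main fit measure how far the differences at 30 and 60 min disagreed, moderated by the spread over all probes. WT and KO were hybridised on separate slides of 4 arrays each, and for every value below slide and genotype cannot be told apart. The allele is missing throughout life, so an effect of the genotype on the skin before the injection cannot be told apart from an effect on the response to it.

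PAC1R, encoded by Adcyap1r1, is a G protein-coupled receptor for the neuropeptide PACAP. It couples mainly to the stimulatory G protein and raises cyclic AMP, which acts through protein kinase A and the transcription factor CREB. PACAP is released from nerve fibres, and in exocrine glands such as the salivary, lacrimal and eccrine sweat glands it is known for promoting secretion. Palm skin of the mouse is where eccrine sweat glands lie.

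Levels are log2 intensities of the vehicle channel after normalization, and a difference of 1 is a 2-fold difference. Of 39429 probes, 24897 were well above background on both arrays of at least 1 vehicle sample and were tested. Arrays of the same RNA agreed closely, with a correlation across probes between 0.996 and 0.998 and a median absolute difference between 0.10 and 0.11. Probes above background made up 52.7% to 61.6% of the Cy3 vehicle channels and 84.3% to 94.3% of the Cy5 channels, so the filter on dim probes was set mainly by the Cy3 channels. Markers of the labelled tissue were present: Krt9, the keratin of palm and sole epidermis, lay between 15.10 and 15.70 in the 4 samples, and Aqp5, the water channel of eccrine secretory cells, between 14.19 and 14.36 on the brighter of its 2 probes.

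WT and KO vehicle skin differed little as wholes, and no probe passed the test. With limma and Benjamini-Hochberg adjustment over all tested probes, 0 probes were called higher in KO (0% of 24897) and 0 lower (0%), and the smallest adjusted p was 0.321. At an unadjusted limma p below 0.05 there were 1665 probes higher in KO (6.69%) and 1888 lower (7.58%). Fitting the 8 vehicle channels with the replicate number as a block called 491 probes higher and 741 lower, but that fit takes the 2 arrays of 1 RNA sample as partly separate samples. Time-matched samples of different genotype were as alike as samples of 1 genotype at different times. The probes at least 2-fold apart numbered 165 between WT and KO at 30 min and 242 at 60 min, against 154 between the WT samples and 318 between the KO samples.

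The sizes of the genotype difference had little in common between the 2 times. The differences at 30 and at 60 min had a correlation of 0.11 across the tested probes, and 64.5% of probes had the same sign at both. Probes at least 2-fold apart at both times numbered 2 higher in KO (0.00803%) and 5 lower (0.0201%). With the scanner's processed signals they numbered 239 and 37, so both the count and the balance of directions depend on the background correction and normalization. In the main setting the 2 higher probes belonged to Wdfy1 and Saa3. The 5 lower probes all belonged to 1 gene family, the Klk1 kallikreins: Klk1, Klk1b3, Klk1b5, Klk1b24 and Klk1b4.

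**Figure D1:**
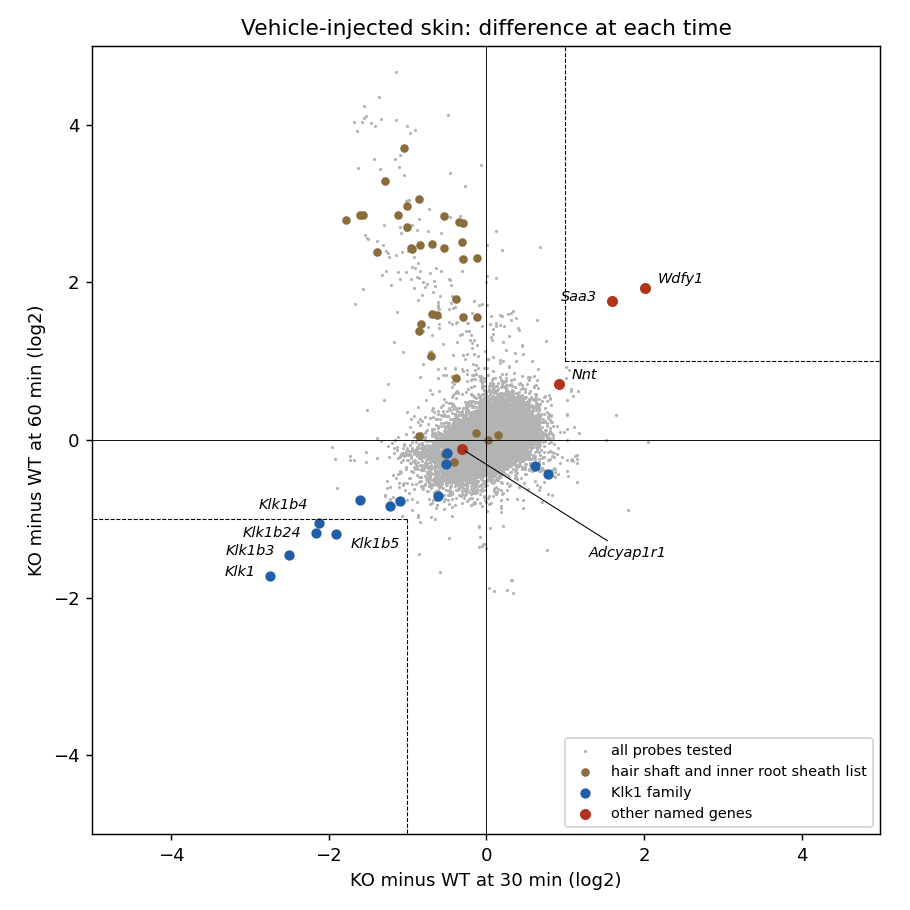
Each point is 1 tested probe of vehicle-injected skin, placed by its KO minus WT difference (log2) at 30 min (horizontal) and at 60 min (vertical), and the dashed corners enclose differences of at least 2-fold at both times. The 5 Klk1 family probes fill the lower left corner, Wdfy1 and Saa3 the upper right, while the hair genes reach high values at 60 min only.

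The receptor gene itself was measured by 1 probe, at chr6:55450829-55450888 on mm9. Adcyap1r1 stood at 8.28 and 8.67 in WT and at 7.98 and 8.56 in KO (30 and 60 min). KO was the lower sample at each time, but the KO sample at 60 min lay above the WT sample at 30 min, so the groups overlapped. The difference was -0.21 (SE 0.10, n = 2 samples per genotype, limma, Benjamini-Hochberg adjusted p = 0.394), with -0.31 at 30 min and -0.11 at 60 min. Without the KO sample at 30 min it was 0.08. Fits with a sample left out have no time term, so that value mixes time with genotype. Which exons the allele lacks is not given in the sources used here, so a probe that may lie outside the deleted part checks nothing about the labels.

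The other genes of the ligand and receptor group lay close together in both genotypes. Adcyap1, the gene of PACAP, stood at 6.77 and 6.71 in WT and at 6.62 and 6.76 in KO (30 and 60 min). The difference was -0.04, with -0.14 at 30 min and 0.06 at 60 min. Without the KO sample at 30 min it was 0.026, in a fit with no time term. Vipr1, a receptor shared by PACAP and VIP, stood at 9.77 and 9.38 in WT and at 9.91 and 9.45 in KO. Time separated the Vipr1 samples more than genotype did. The difference was 0.11, with 0.15 at 30 min and 0.07 at 60 min, so KO was higher at each time. It was -0.13 without the KO sample at 30 min, in a fit with no time term that sets KO at 60 min against both WT times. Vipr2, the second shared receptor, stood at 7.06 and 7.04 in WT and at 6.92 and 6.93 in KO, both KO samples just below both WT samples, with a difference of -0.13 (SE 0.09) that ranged from -0.19 to -0.064 when arrays or samples were left out. The probe of Vip was above background in 2 of 8 channels and was not tested.

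Genes beside the receptor locus were looked at because a targeted allele is carried with its neighbouring chromosome. Within 5 Mb on either side of the Adcyap1r1 probe, 78 of 168 probes were tested, covering 60 genes. Of these, 24 had both KO samples above both WT samples (30.8%, against 17.6% of all tested probes) and 11 had both below (14.1%, against 18.3%). Their median difference was 0.08, against 0.01 over all tested probes, and the range ran from -0.69 for the homeobox gene Hoxa10 to 0.42 for Fam13a. No flanking probe was 2-fold apart at both times.

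All 5 probes with KO at least 2-fold below WT at both times came from the Klk1 family. Klk1, tissue kallikrein, is a serine protease of exocrine glands that releases vasoactive kinins. The Klk1b genes are its mouse paralogs, known from the granular ducts of the submandibular gland, where they depend on androgen. They lie side by side on chromosome 7, with probes from 51201131 to 51484325 on mm9. Of 18 family probes, 13 were tested, covering 12 genes.

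Because these genes are close copies, a probe for one can bind RNA of another. The probes were compared with each other only, at the different transcript positions where they lie, so shared runs between them do not measure binding of a paralog's RNA. Across the 77 probe pairs of different genes, the longest run of identical bases had a median of 6 of 60 and a maximum of 28. Only 2 pairs shared 20 bases or more. Both pairs are printed below with the pair Klk1b24 and Klk1b26, whose probes share 17 bases but whose values differed. Runs as long were shared by Klk1b8 with Klk1b4 (17 bases) and Egfbp2 with Klk1b5 (19 bases), and these genes were all lower in KO. Capitals mark the longest run shared with the partner probe.
Klk1: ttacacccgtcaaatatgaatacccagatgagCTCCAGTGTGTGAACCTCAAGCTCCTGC
Klk1b4: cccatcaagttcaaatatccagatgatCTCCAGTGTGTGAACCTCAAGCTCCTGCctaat
Klk1b3: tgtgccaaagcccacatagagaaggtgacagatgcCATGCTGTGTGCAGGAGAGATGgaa
Klk1b22: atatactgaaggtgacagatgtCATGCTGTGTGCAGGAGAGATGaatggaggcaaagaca
Klk1b24: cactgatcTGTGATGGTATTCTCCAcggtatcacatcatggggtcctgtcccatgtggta
Klk1b26: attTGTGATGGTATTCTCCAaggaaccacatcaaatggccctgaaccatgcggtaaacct
On mm9 the probe of Klk1 spans chr7:51484170-51484325 and that of Klk1b4 spans chr7:51466302-51466457, each across a splice junction by its span. The probe of Klk1b3 lies at chr7:51457064-51457122, that of Klk1b22 at chr7:51371648-51371707, that of Klk1b24 at chr7:51447637-51447696 and that of Klk1b26 at chr7:51272156-51272215, all on the plus strand. How far the RNAs of the paralogs contribute to each probe was not tested, so the values below are uncertain as to which paralog they belong to.

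Klk1 stood at 9.56 and 8.55 in WT and at 6.82 and 6.83 in KO (30 and 60 min). Both KO samples lay far below both WT samples, and the WT samples differed from each other while the KO samples did not. WT was 6.68-fold above KO at 30 min and 3.29-fold at 60 min, and the fitted difference was -2.23 (SE 0.26; limma, Benjamini-Hochberg adjusted p = 0.321). The single arrays showed the same order, with WT between 8.53 and 9.65 and KO between 6.71 and 6.94.

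The next 4 paralogs also had both KO samples below both WT samples. Klk1b3, which encodes the gamma subunit of nerve growth factor complex, stood at 9.51 and 8.55 in WT and at 7.01 and 7.09 in KO (30 and 60 min), a difference of -1.98 (SE 0.27). Klk1b24 stood at 9.24 and 8.49 in WT and at 7.07 and 7.30 in KO, a difference of -1.67. Klk1b4, which encodes the alpha subunit of the same complex, stood at 8.85 and 8.16 in WT and at 6.72 and 7.10 in KO, a difference of -1.59. In each of these genes WT was lower at 60 min than at 30 min, and KO was below WT at both times. Klk1b5 stood at 10.22 and 9.48 in WT and at 8.32 and 8.29 in KO, a difference of -1.54.

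The remaining family members ranged from smaller differences of the same sign to none. Klk1b8 stood at 8.61 and 8.02 in WT and at 7.01 and 7.26 in KO. Egfbp2, which encodes an epidermal growth factor-binding protein, had 2 probes that overlap each other, at chr7:51272272-51272331 and chr7:51272277-51272336 on mm9, with differences of -0.93 and -1.03. Klk1b22 stood at 7.59 and 7.55 in WT and at 6.98 and 6.85 in KO, and in all of these genes the genotypes did not overlap. Klk1b26 and Klk1b16 did not share the order. The probe of Klk1b26 lies directly before those of Egfbp2 on the same strand, so on mm9 they sit at 1 locus although they are named for separate genes. Klk1b26 stood at 7.50 and 8.63 in WT and at 8.28 and 8.20 in KO, so that KO was above WT at 30 min and below it at 60 min, and Klk1b16 had the same change of sign.

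Over the family, 11 of 13 tested probes were lower in KO at both times, against 31.2% of all tested probes. The same 11 had both KO samples below both WT samples, against 18.3% of all. Their unadjusted limma p was below 0.05 in 11 of 13, against 7.58% lower among all probes, and none passed the adjustment. The family was taken up because 5 of its probes were at least 2-fold lower in KO at both times, a choice that favours these counts. Probes of close copies may also not be separate observations. The median difference of the 13 probes was -1.03, with a range from -2.23 to 0.18, against a median of 0.01 over all tested probes. In the PACAP-injected skin of the same genotypes and times, which are other RNA samples on the same arrays and slides, 11 family probes were also lower in KO at both times. Of all tested probes with 1 sign at both times in vehicle skin, 59.2% had that sign at both times in PACAP-injected skin. Klk1 differed there by -2.12 at 30 min and by -1.64 at 60 min.

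**Figure D2:**
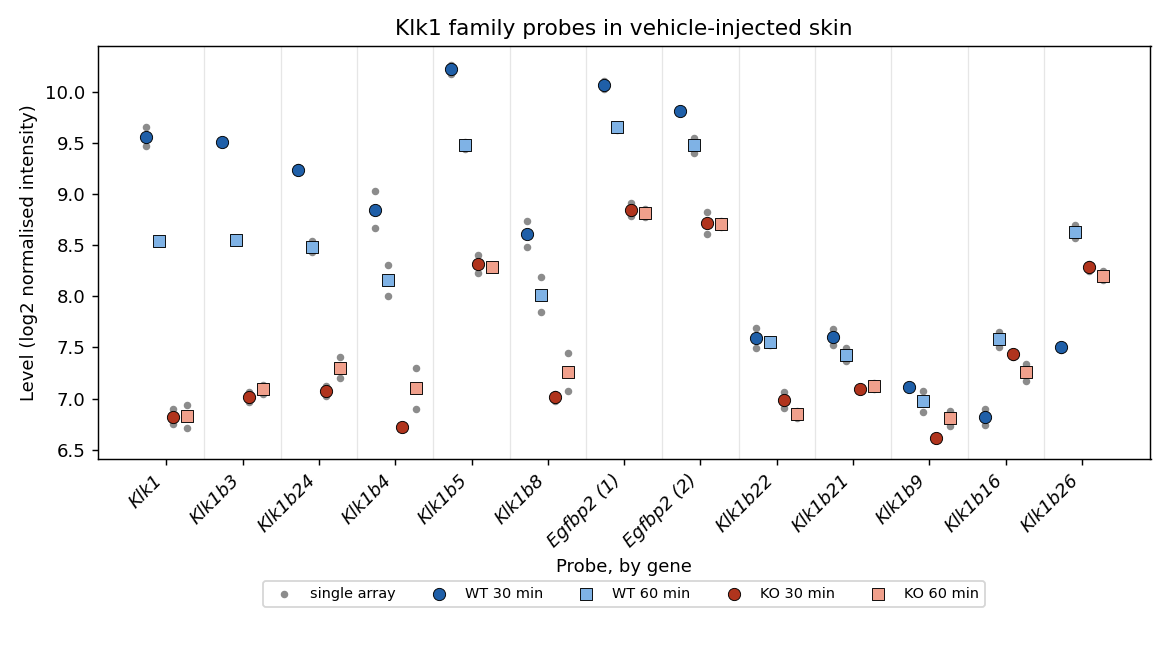
Levels (log2 normalised intensity, vertical) of the 13 tested Klk1 family probes, by gene (horizontal). Circles and squares are the mean of the 2 arrays of a vehicle sample at 30 and 60 min, blue for WT and red for KO, and grey dots are single arrays. For 11 probes both KO samples lie below both WT samples, while for Klk1b16 and Klk1b26 the WT sample at 30 min is the lowest.

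The neighbouring kallikreins, Klk4 to Klk15, served as a comparison within the same gene cluster. They lie just beside the Klk1 genes, and Klk5 and Klk7 are the epidermal proteases that shed the stratum corneum. Of their 13 probes 12 were tested, with 2 lower and 3 higher at both times (against 31.2% and 33.3% of all tested probes) and a median difference of 0.01. Klk7 stood at 12.26 and 12.50 in WT and at 12.79 and 12.80 in KO, and Klk5 differed by 0.01. Klk9 had the lowest difference, -0.44, and Klk6 the highest, 0.69.

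The promoters of the family were read from RefSeq on GRCm38.p6, as the 250 bases before each start, for the 11 of 12 tested genes that had one. Identity between them, over the 155 to 252 aligned columns in which the windows overlapped and without their overhanging ends, was 72.6% to 97.7% over 55 pairs, with a median of 81.6%. On either strand the letters TTTAAA, a variant of the TATA box, were found in 9 of 11 family promoters and in 12.1% of all 32851 mouse promoters of that length. The letters TGACG, the core of the cyclic AMP response element bound by CREB, were found in 0 of 11 and in 17.8% of all, and TGACGTCA in 0 of 11 and in 1.55% of all. The letters TGTTCT, the half-site of androgen and glucocorticoid receptors, were found in 2 of 11 and in 16.1% of all. Of the 9 genes lower in KO at both times that had a promoter, 7 held TTTAAA. The promoter of Klk1b24 (chr7:44187986-44188235, plus strand), which was lower in KO, and that of Klk1b26 (chr7:44012428-44012677, plus strand), which was not, are shown to let the likeness be seen, with TTTAAA in capitals, 31 and 26 bases before the start.
Klk1b24: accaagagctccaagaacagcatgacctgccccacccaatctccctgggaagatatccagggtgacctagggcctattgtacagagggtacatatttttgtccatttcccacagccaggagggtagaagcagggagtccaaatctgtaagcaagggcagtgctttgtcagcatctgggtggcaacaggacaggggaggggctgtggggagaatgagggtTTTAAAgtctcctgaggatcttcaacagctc
Klk1b26: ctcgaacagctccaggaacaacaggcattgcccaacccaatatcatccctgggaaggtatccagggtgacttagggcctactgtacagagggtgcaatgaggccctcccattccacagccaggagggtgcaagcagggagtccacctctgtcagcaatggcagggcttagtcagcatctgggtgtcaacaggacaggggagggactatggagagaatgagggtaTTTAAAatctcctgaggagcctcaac
A match of letters is not a bound site, and their absence from these windows says nothing about the factors.

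No member of any gene list below passed the test, so lists are given by their counts and medians. Eccrine gland genes were read beside the kallikreins, since both are glandular, and in bulk skin fewer cells of a type and less RNA per cell cannot be told apart. Of 25 list probes 22 were tested, with 5 higher (against 33.3% of all tested probes) and 10 lower (against 31.2%) in KO at both times and a median of -0.06. In 7 of 22 (31.8%, against 18.3% of all tested probes) both KO samples lay below both WT samples. In 1 (4.55%, against 17.6%) both lay above. The genes given next without overlap are all from the lower side. Kcnn4, the calcium-activated potassium channel of secretory epithelia, stood at 9.16 and 9.09 in WT and at 8.51 and 8.68 in KO, a difference of -0.53. Krt7, a keratin of simple and glandular epithelium, stood at 8.57 and 8.12 in WT and at 7.96 and 7.85 in KO. In both genes the genotypes did not overlap. Atp1b1, a beta subunit of the sodium pump, stood at 13.20 and 12.92 in WT and at 12.76 and 12.50 in KO, a difference of -0.43 without overlap.

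Aqp5 had 2 tested probes, both with KO below WT and no overlap. The first stood at 14.33 and 14.36 in WT and at 14.22 and 14.19 in KO, a difference of -0.14. The second stood at 10.94 and 11.26 in WT and at 10.42 and 10.75 in KO, a difference of -0.52. Slc12a2 and Best2 had overlapping values. Slc12a2, the sodium-potassium-chloride cotransporter that loads chloride for secretion, stood at 12.82 and 12.27 in WT and at 13.18 and 12.28 in KO. Best2, a bestrophin channel that mice need for sweating, stood at 11.36 and 11.64 in WT and at 11.61 and 11.67 in KO, and Foxi1, a transcription factor of the gland, differed by -0.14. The part of a gland content in the kallikrein differences was not tested.

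Downstream of the receptor, the cyclic AMP pathway leaned to neither side. Of 36 tested probes, 13 were higher and 12 lower in KO at both times, against 33.3% and 31.2% of all tested probes, with a median of 0.02. Gnas, the stimulatory G protein subunit, stood at 11.99 and 12.14 in WT and at 11.95 and 12.06 in KO, and Creb1 differed by 0.01. In the fit of both times Arrb1 had the highest and Grk2 the lowest difference of the list. Arrb1, beta-arrestin 1, stood at 10.32 and 10.16 in WT and at 10.74 and 10.47 in KO, and Grk2, the kinase that marks active receptors for arrestin, stood at 10.07 and 10.02 in WT and at 9.59 and 9.80 in KO. Neither gene's samples overlapped between genotypes, and their differences were 0.36 and -0.35.

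Among single genes outside these groups, Wdfy1 had the smallest p. Wdfy1 encodes a FYVE domain protein of early endosomes that takes part in Toll-like receptor signalling. Its probe stood at 7.73 and 7.63 in WT and at 9.74 and 9.56 in KO, with all 4 KO arrays above all 4 WT arrays. KO was 4.03-fold above WT at 30 min and 3.80-fold at 60 min, and the fitted difference was 1.97 (SE 0.09; limma, Benjamini-Hochberg adjusted p = 0.321). The 3 other probes of Wdfy1 did not show a difference of this size. Of these, 2 had the opposite sign, -0.44 and -0.14, and 1 had the same sign at both times, 0.25. In PACAP-injected skin the first probe differed by 1.46 at 30 min and 1.81 at 60 min.

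Saa3, an acute-phase serum amyloid A made locally in inflamed tissue, stood at 6.64 and 7.25 in WT and at 8.23 and 9.02 in KO. KO was higher at each time, and both genotypes were higher at 60 min than at 30 min. The fold was 3.02 at 30 min and 3.40 at 60 min, and the fitted difference was 1.68 (SE 0.09; limma, Benjamini-Hochberg adjusted p = 0.321). The probe was above background in 3 of the 4 WT channels and in all 4 KO channels, and with the scanner's processed signals the difference was 2.67. In PACAP-injected skin the KO minus WT difference was 4.65 at 30 min and 3.82 at 60 min.

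Nnt encodes the mitochondrial nicotinamide nucleotide transhydrogenase, and C57BL/6J mice are known to carry a deletion inside it that some related strains lack. It stood at 8.76 and 9.12 in WT and at 9.69 and 9.83 in KO, both KO samples above both WT samples, with a difference of 0.82 (SE 0.10; limma, Benjamini-Hochberg adjusted p = 0.321). Its 2 other probes were above background in 1 of 8 channels each. Whether the KO mice carry another allele of Nnt was not tested.

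By rule, the 12 genes with the smallest limma p in each direction were named, and the differences of these 24 had a size between 0.64 and 2.23. In 22 of the 24 the genotypes did not overlap, a pattern that the choice by small p favours. In PACAP-injected skin 22 of the 24 had the same sign at both times, and the exceptions were Ifi205 and Ahsp. Of all 16050 tested probes with 1 sign at both times in vehicle skin, 59.2% had that sign at both times in PACAP-injected skin. The PACAP samples share their arrays and slides with the vehicle samples, so here too slide and genotype cannot be told apart.

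Beside Wdfy1, Saa3 and Nnt, 9 genes with higher KO values were named. Skint3, of a family of immunoglobulin-like proteins made in skin and thymus, stood at 8.41 and 8.23 in WT and at 9.42 and 9.15 in KO. Lrrc17, a secreted leucine-rich repeat protein, stood at 8.52 and 8.68 in WT and at 9.57 and 9.57 in KO. Clec10a, a lectin of dermal macrophages and dendritic cells, stood at 10.45 and 10.56 in WT and at 11.08 and 11.26 in KO. In these 3 genes both KO samples were above both WT samples. Ifi205, an interferon-inducible gene, stood at 8.51 and 9.22 in WT and at 9.17 and 10.13 in KO. The groups overlapped although KO was higher at each time, by 0.66 at 30 min and 0.91 at 60 min. In fits with no time term, its difference was 0.31 without the KO sample at 60 min and 1.26 without that at 30 min. Tas2r113, a bitter taste receptor gene, differed by 1.01, Zfp940, a zinc finger gene, by 0.65, and the protease gene Adamdec1 by 0.64. The transcripts Gm10827 and LF194844 differed by 0.90 and 0.70. With the scanner's processed signals the differences were 1.30 for Adamdec1, 1.40 for Gm10827 and 1.15 for LF194844.

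Beside Klk1, 11 genes with lower KO values were named, of which Ahsp is given with the red blood cell genes. Rnf126, a ubiquitin ligase, stood at 10.49 and 10.38 in WT and at 9.43 and 9.41 in KO, a difference of -1.02 (SE 0.09). Spint2, an inhibitor of serine proteases in epithelia, stood at 9.60 and 9.87 in WT and at 8.66 and 8.98 in KO, and its second probe differed by -0.56. Mgst3, a microsomal glutathione transferase, stood at 12.95 and 13.21 in WT and at 12.26 and 12.42 in KO, and its second probe differed by -0.70. In these 3 genes neither KO sample reached a WT sample. Gstm1, a cytosolic glutathione transferase, stood at 9.24 and 10.53 in WT and at 8.37 and 9.55 in KO, where time moved both genotypes and the groups overlapped, and its second probe differed by -0.21. The Gstm1 difference was -0.87 at 30 min and -0.98 at 60 min. In fits with no time term, it was -1.57 without the WT sample at 30 min and -0.28 without that at 60 min.

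The rest of the lower genes had differences between -0.97 and -0.76. Rps6kb2, a ribosomal protein S6 kinase, differed by -0.83 and by -0.74 on its second probe. Tmed2, a cargo receptor of the early secretory pathway, differed by -0.89, R3hdm4 by -0.90, Btg1c by -0.97 and the transcript ENSMUST00000201667.1 by -0.76. Gm2192 differed by -0.94, was above background in 4 WT and 2 KO channels, and differed by -2.69 with the scanner's processed signals.

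**Figure D3:**
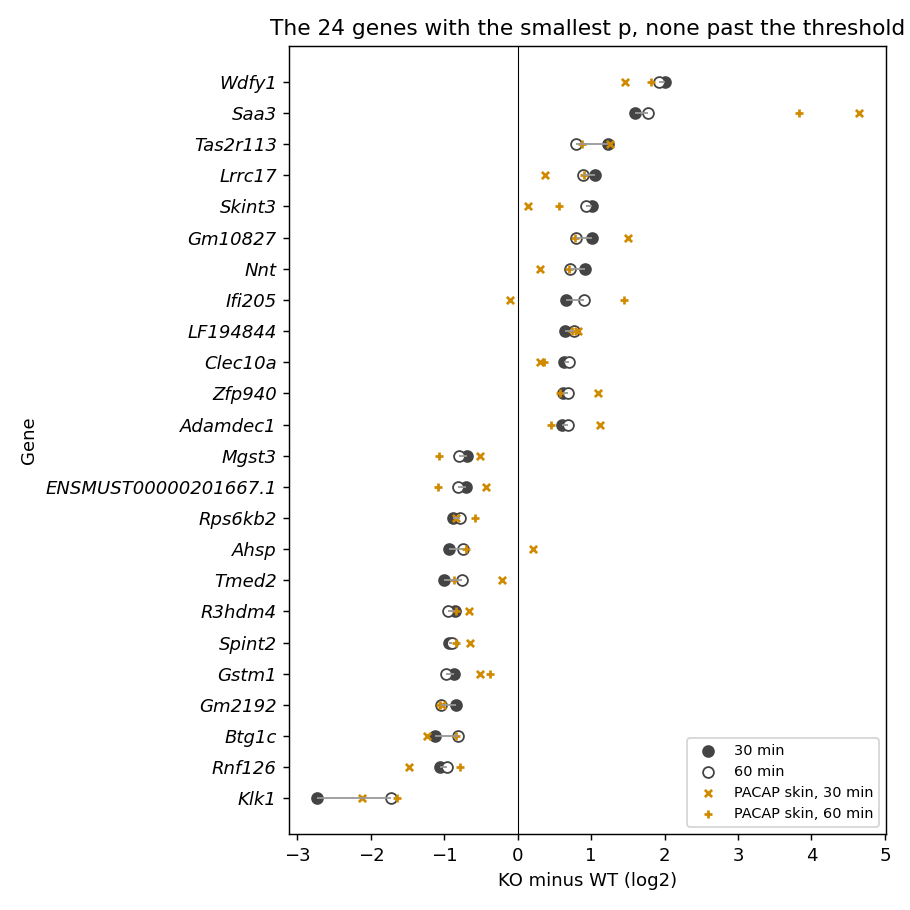
KO minus WT difference (log2, horizontal) of the 24 genes with the smallest limma p, 12 in each direction, none of which passed the test. Filled and open circles are vehicle skin at 30 and 60 min, and the orange crosses are PACAP-injected skin. Wdfy1 and Saa3 lie farthest to the right and Klk1 farthest to the left in vehicle skin, and Ifi205 and Ahsp each have 1 PACAP value on the other side of 0.

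Most red blood cell genes had lower values in KO, mainly at 60 min. Of 11 tested red blood cell probes, 8 were lower and 1 higher at both times, against 31.2% and 33.3% of all tested probes. The list median was -0.65 against 0.01 over all tested probes. The median was -0.05 at 30 min and -0.86 at 60 min. In 6 of 11 (54.5%, against 18.3% of all) both KO samples lay below both WT samples. Hbb-b1, a beta globin gene with near-identical copies, stood at 11.29 and 12.23 in WT and at 10.71 and 10.56 in KO. Alas2, the haem synthesis enzyme of red cell precursors, stood at 9.30 and 10.03 in WT and at 8.82 and 8.79 in KO, and Ahsp, the alpha globin chaperone, at 9.30 and 8.95 in WT and at 8.36 and 8.20 in KO. The genotypes did not overlap in any of the 3. The part of residual blood in these values was not tested.

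Plasma protein genes had no common shift, although 1 sample stood out. Alb, albumin, stood at 6.54 and 7.77 in WT and at 6.53 and 6.46 in KO, so the WT sample at 60 min alone was high. The 19 tested liver genes had a median of -0.24, with 0.04 at 30 min and -0.60 at 60 min. C3, the central complement protein, which skin cells also make, stood at 12.23 and 12.35 in WT and at 12.79 and 12.88 in KO, a difference of 0.55 without overlap.

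Hair genes separated 1 sample from the other 3. The 36 tested genes of the hair shaft and inner root sheath had a median difference of -0.69 at 30 min and 2.41 at 60 min. Krt33a, a hair keratin, stood at 9.33 and 8.33 in WT and at 8.28 and 12.04 in KO. The KO sample at 60 min was thus high and no genotype difference was shared by the times. In KO 1 hair gene was higher and 2 lower at both times, against 33.3% and 31.2% of all tested probes. The palm surface itself bears no hair.

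The KO sample at 60 min was also high in several other cell type genes. Retnla, a gene of alternatively activated macrophages, stood at 10.22 and 10.54 in WT and at 10.35 and 13.20 in KO. Postn, the matrix protein periostin, stood at 9.58 and 8.60 in WT and at 9.31 and 10.90 in KO. Chil3, a chitinase-like protein of macrophages and neutrophils, stood at 7.07 and 7.35 in WT and at 7.75 and 9.80 in KO, where the KO sample at 30 min was above both WT samples as well. The part of this sample's content in the 60 min differences was not tested.

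Macrophage and eosinophil genes mostly had higher values in KO. Of 19 tested probes, 13 were higher and 1 lower at both times, against 33.3% and 31.2% of all tested probes. The list median was 0.21 (0.09 at 30 min and 0.32 at 60 min). In 9 of 19 (47.4%, against 17.6% of all tested probes) both KO samples were above both WT samples. Mrc1, the mannose receptor of dermal macrophages, stood at 10.52 and 10.54 in WT and at 11.10 and 10.80 in KO, a difference of 0.42 without overlap. Lymphocyte genes had 11 of 14 higher in KO at both times, against 33.3% of all tested probes, with a median of 0.14, and in 6 of 14 (42.9%, against 17.6%) both KO samples were above both WT samples. Cd3e, a subunit of the T cell receptor complex, stood at 9.53 and 9.41 in WT and at 9.35 and 9.58 in KO, with overlap.

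Collagen and fibroblast genes divided. Of 29 tested, 14 were higher and 5 lower at both times, against 33.3% and 31.2% of all tested probes. The median was 0.22, with 0.00 at 30 min and 0.30 at 60 min, and in 10 (34.5%, against 17.6% of all) both KO samples lay above both WT samples. Col3a1, a fibrillar collagen of dermis, stood at 14.47 and 13.98 in WT and at 14.91 and 14.70 in KO. Some members lay on the other side. Fmod, the matrix protein fibromodulin, stood at 11.36 and 11.53 in WT and at 10.82 and 10.83 in KO, and Scx, the transcription factor of tendon cells, differed by -0.44. Neither gene overlapped between genotypes.

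Muscle genes had opposite signs at the 2 times. The 32 tested probes had a median of 0.52 at 30 min and -0.21 at 60 min. Atp2a1, the calcium pump of fast muscle, was low in KO at both times, with 10.44 and 10.94 in WT and 9.83 and 10.30 in KO. Chrna1, the muscle acetylcholine receptor subunit, stood at 9.50 and 9.95 in WT and at 10.18 and 10.23 in KO, the opposite order, and its second probe differed by 0.18.

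Cell cycle genes had higher values in KO at 30 min and were divided at 60 min. All 30 tested probes had a positive difference at 30 min, with a median of 0.36, and 15 of 30 at 60 min, with a median of 0.00 and a range from -0.39 to 0.55. Mcm3, a subunit of the replicative helicase, stood at 10.63 and 10.27 in WT and at 11.00 and 10.82 in KO, a difference of 0.46, and Ccnb2, cyclin B2, differed by 0.45. Respiratory chain genes had a like order, with 37 of 40 positive at 30 min and 13 of 40 at 60 min. Each time rests on 1 sample per genotype, so these counts describe those samples.

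Immediate early genes, the first to respond to injury or to cyclic AMP, had no common shift at 30 min, with a median of 0.04, and a median of -0.34 at 60 min. Of 29 tested, 3 were higher and 7 lower in KO at both times, against 33.3% and 31.2% of all tested probes. Ier2 stood at 8.89 and 9.15 in WT and at 8.36 and 8.40 in KO, and Junb, an AP-1 subunit, at 7.73 and 7.89 in WT and at 7.13 and 7.38 in KO. Neither overlapped between genotypes, as in 5 of the 29 (17.2%, against 18.3% of all) with KO below WT. At an unadjusted limma p below 0.05, 7 of the 29 were lower and 1 higher in KO, against 7.58% and 6.69% of all tested probes. Fos, the prototype of the group, stood at 11.59 and 12.59 in WT and at 12.36 and 11.20 in KO, with no common order. Fosl2 differed by 0.39, the other way.

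Clock genes work in opposite phases, so a median over them says little, and it was -0.03 over 19 tested probes. At an unadjusted limma p below 0.05, 5 were higher and 2 lower in KO, against 6.69% and 7.58% of all tested probes, while both KO samples lay above both WT samples in 3 (15.8%, against 17.6% of all) and below in 2 (10.5%, against 18.3%). Dbp, an output gene of the clock with a strong daily rhythm, stood at 13.25 and 11.89 in WT and at 13.71 and 13.09 in KO, higher in KO at each time with overlap. Nr1d2, a repressor of the clock loop, stood at 11.60 and 10.97 in WT and at 12.07 and 11.50 in KO. Per1 and Per2, the period genes, differed by 0.37 (0.13 on its second probe) and 0.35, and Arntl, their activator, by -0.44. The hour at which each skin was taken is not given in the sources used here, so time of day and genotype cannot be told apart.

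Interferon-inducible genes had 13 of 29 higher and 3 lower in KO at both times, against 33.3% and 31.2% of all tested probes, with a median of 0.12. At 30 min 25 of 29 were higher in KO, with a median of 0.18, and at 60 min 14 were higher and 15 lower, with a median of -0.01. Oas2, a sensor of double-stranded RNA, stood at 7.27 and 7.10 in WT and at 7.90 and 7.62 in KO, without overlap, and Irf1 differed by 0.57. Epidermal genes had a median of 0.09, and Krt10, the keratin of differentiating layers, stood at 15.06 and 14.68 in WT and at 15.52 and 15.14 in KO. Genes that serve as references lay near 0, with medians of -0.01 over 42 cytosolic ribosomal protein genes and 0.09 over 18 housekeeping genes. Medians of the other lists with 10 or more tested probes lay between -0.08 and 0.16.

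**Figure D4:**
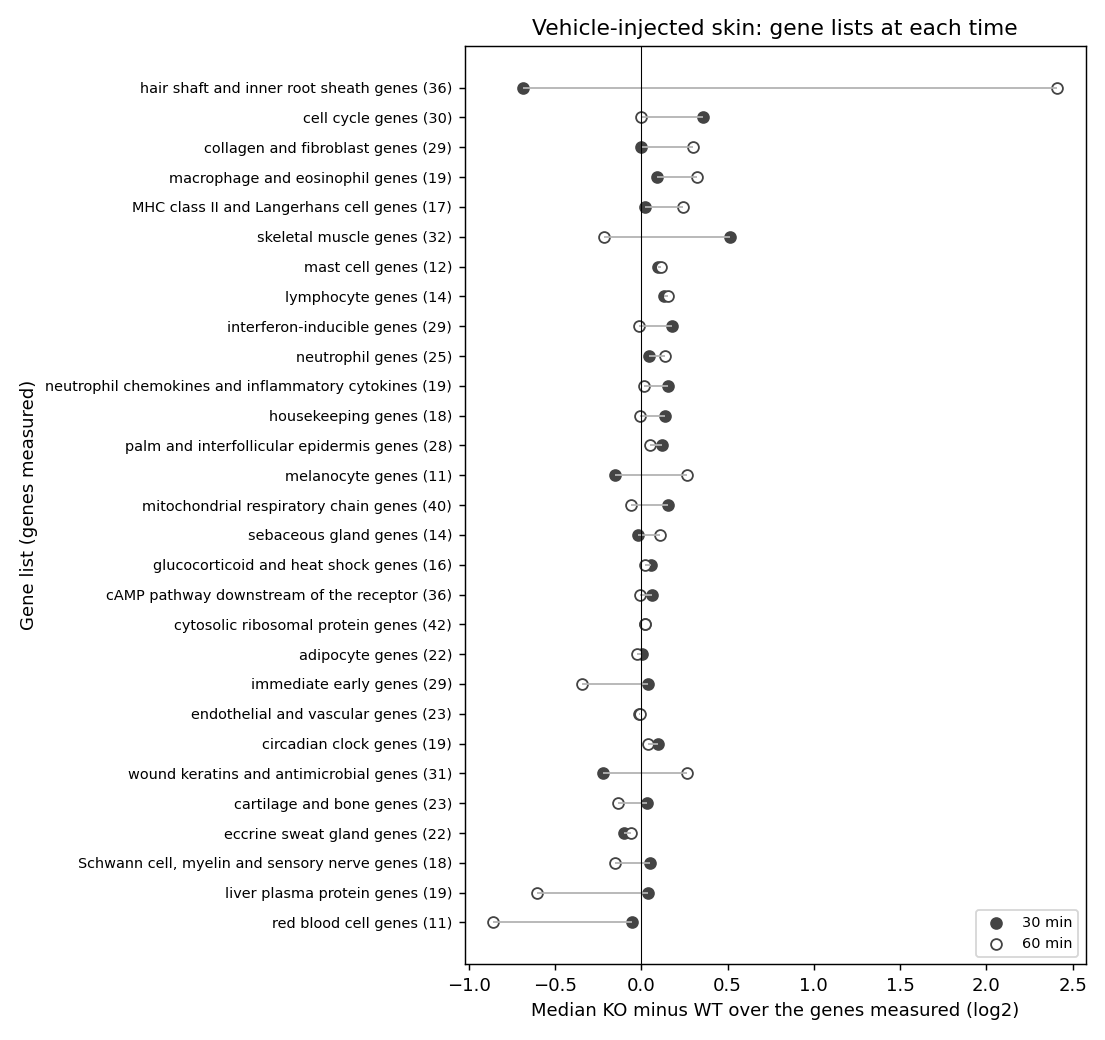
Median KO minus WT difference (log2, horizontal) over the tested members of the 29 gene lists with at least 10 of them, their number in parentheses, at 30 min (filled) and 60 min (open). Hair genes run from -0.69 at 30 min to 2.41 at 60 min, red blood cell genes have the lowest value, -0.86 at 60 min, and ribosomal protein genes lie near 0 at both times.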

How the data were processed

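RNA from vehicle-injected and PACAP-injected palm skin had been labelled with Cy3 and Cy5 and hybridised together on 8 Agilent 2-colour arrays. The deposited files hold the intensity of each spot in both channels as the authors' scanner software gave it, before any normalization between arrays. That software is Agilent Feature Extraction 12.0.3.1 per the file headers and 11.0.1.1 in the submitters' processing notes. A deposited table of 8 columns of processed ratios was not used, since a ratio of PACAP to vehicle does not compare genotypes.

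Mean and background intensities were corrected with normexp (offset 50) and normalized by loess within arrays and by Aquantile between arrays in limma 3.58.1 (R 4.3.3), after 1377 control spots had been given no weight. Outlier-flagged spots were left out, no spot was saturated, and the spots of a probe and then the 2 dye-swapped arrays of an RNA sample were averaged. Because a single channel of a 2-colour array is compared across slides, differences between slides that normalization did not remove stay in the values.

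Of 39429 probes, 24897 were well above background on both arrays of at least 1 vehicle sample. KO was compared with WT over 4 samples with lmFit and eBayes, with time (30 or 60 min) as a term, 1 residual degree of freedom per probe and 3.26 from the prior, and Benjamini-Hochberg adjustment at 0.05. The script was tested on simulated data. With 2 samples per genotype, the number of samples limits the precision.

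Named were the receptor and ligand genes, the 12 genes with the smallest p in each direction, every probe at least 2-fold apart at both times, and, for the lists described, the members with the largest differences and some that define the list. The last kind was chosen after its values were seen. The members and lists were chosen with earlier results of these data known. A gene with several probes in a list is represented by its probe of highest mean level. Promoters came from RefSeq tables of GRCm38.p6, while probe positions are those of the files on mm9, and these were not combined. Identities and motifs were computed with Biopython 1.88, pandas 2.3.3 and Python 3.11.15, and figures were drawn with matplotlib 3.10.9.

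Alternatives were another normexp offset, the scanner's processed signals, other normalizations, other filters on dim probes, flagged spots kept, no time term, a fit of all 8 RNA samples, each dye orientation, array or sample left out, the replicate number as a block, and the PACAP channel in place of the vehicle channel. Fits with a sample left out had no time term.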

Additional observations from a re-analysis of the deposited data

Results flagged for a closer look

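In 3 gene lists the median KO minus WT difference had opposite signs at the 2 times, with a size of at least 0.2 (log2) at each. Each time rests on 1 sample per genotype, and the difference between the times was not tested. The hair shaft and inner root sheath list had a median of -0.69 at 30 min and 2.41 at 60 min. The skeletal muscle list had a median of 0.52 at 30 min and -0.21 at 60 min. The list of wound keratins and antimicrobial genes had a median of -0.22 at 30 min and 0.26 at 60 min.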

How the results depend on the processing

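No vehicle probe was called in either direction under most alternatives. Leaving out arrays, dye orientations or samples gave 0 to 62 probes called higher in KO, with 62 without the KO sample at 30 min and 2 without array 2 of WT at 60 min or array 1 of KO at 60 min. It gave 0 to 1 called lower, the 1 without array 1 of KO at 60 min. The fit with the replicate block called 491 higher and 741 lower. The number marks the dye orientation, and the deviations of arrays with the same number had correlations from 0.14 to 0.87. Under this block the Benjamini-Hochberg adjusted limma p was 0.00705 for Wdfy1, 0.00207 for Saa3, 0.0168 for Klk1 and 0.0168 for Nnt.

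Probes at least 2-fold higher at both times numbered 2 to 3 when arrays or dye orientations were left out, 4 with normexp offset 10, 239 with the scanner's processed signals, 1 with probes above background in all 8 channels and 29 in the PACAP channel. Those at least 2-fold lower numbered 4 to 7, 8 and 37 for the first 3 of these. Fits with no time term, of all 8 RNA samples, with a sample left out or with the replicate block give no value per time, so these counts could not be had there. Fits with a sample left out also have no time term, so their values mix time with genotype. Adcyap1r1 ranged from -0.50 to 0.082 when arrays or samples were left out, with 0.082 without the KO sample at 30 min. Adcyap1 ranged from -0.11 to 0.026, above 0 without array 2 of KO at 30 min (0.0083) or that KO sample (0.026), and was 0.10 in the PACAP channel. Vipr1 ranged from -0.13 to 0.34, with -0.088 without the WT sample at 60 min, -0.13 without the KO sample at 30 min and -0.33 in the PACAP channel. Klk1 lay between -3.37 and -1.72 in all 25 alternatives, and Saa3 between 1.29 and 4.23, the last in the PACAP channel. The cause of these changes was not tested.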

Other observations

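Some vehicle-skin values of genes not named above were picked after they were seen. Pdk4, a kinase that restrains glucose oxidation and responds to glucocorticoids, stood at 9.54 and 9.36 in WT and at 8.68 and 8.84 in KO (30 and 60 min). Ptgs2, the inducible cyclooxygenase, stood at 7.30 and 7.80 in WT and at 7.12 and 7.12 in KO. In both genes both KO samples were below both WT samples, a pattern seen in 18.3% of all tested probes. Pdk4 is on the list of glucocorticoid and heat shock genes, whose median difference was 0.06. Ptgs2 is on that of neutrophil chemokines and inflammatory cytokines, whose median was 0.10.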
